A study of Homo sapiens with 12 samples.

Results

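The response of ZR-75-1 cells to CDK4/6 inhibition was compared between cells with and without *RB1* by subtracting one response from the other, gene by gene. ZR-75-1 is a human breast cancer line that expresses the oestrogen receptor. The groups were sgControl cells, which carry a control guide RNA, and sgRB1 cells, in which *RB1* was knocked out, each grown for 5 days in DMSO or in 500 nM abemaciclib, which blocks the cyclin-dependent kinases CDK4 and CDK6. All 12 of the 12 libraries of the series entered the comparison, 3 replicates for each of 4 groups. The DMSO groups received the same volume of solvent without drug. *RB1*-knockout lines were grown from single edited cells, and the number of clones is not given in the sources used here. The study's figure legends describe RNA-seq replicates of cell lines as independent cultures, without naming these libraries. P-values measure the spread between these libraries, and an effect of *RB1* loss cannot be told apart from other differences between the lines.

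The retinoblastoma protein Rb, encoded by *RB1*, binds E2F transcription factors and holds back genes needed for DNA replication and cell division. Cyclin D with CDK4 or CDK6 phosphorylates Rb and releases E2F, so an inhibitor of these kinases keeps Rb active. In oestrogen receptor-positive breast cancer such inhibitors arrest cells in G1, and loss of *RB1* is a known route to resistance. The comparison asks which responses to abemaciclib differ when *RB1* is missing and which do not.

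The libraries held 39907318 to 81636393 counts. *RB1* (chromosome 13, positions 48303744 to 48599436, GRCh38) had normalized counts of 4154, 4825 and 4752 in sgControl under DMSO and fewer, 2252, 2375 and 2489, in abemaciclib, against 39.6, 49.6 and 51.2 and then 54.4, 44.2 and 63.5 in the knockout, so no library went against its label. All 13 luminal marker genes were expressed, the lowest at a mean normalized count of 5162. Of 19 markers of leucocytes, endothelium, fibroblasts and basal cells, 13 had a mean normalized count under 10 and *CD3E* was at 0 in every library. Their summed normalized count, most of it *COL1A1* and *ACTA2*, was 2875 to 2969 in sgControl and 2778 to 3025 in knockout cells in DMSO, and 3633 to 3865 and 3524 to 3653 in abemaciclib. Mitochondrial transcripts took 3.49% ± 0.600 (SD, n = 3) of counts in sgControl under DMSO and 7.73% ± 0.702 in abemaciclib, and 3.98% ± 0.180 and 6.13% ± 1.09 in the knockout. Replicates 1 and 3 of sgControl in DMSO were the least alike of any replicate pair, with a chi-square of 105 per gene, against 3.49 to 50.2 for the other pairs. In bulk RNA, fewer cells expressing a gene and less RNA per cell cannot be told apart.

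The difference between the responses (the interaction) was tested for 20932 genes with DESeq2. It was positive, meaning that abemaciclib left the gene higher in the knockout than its effect in sgControl would give, for 4417 genes (21.1%) and negative for 4251 (20.3%) at an adjusted p-value under 0.05. Scaled by total counts the split was 5467 and 3098, since that scaling moved the median interaction by 0.14 on the log2 scale. The background for each response was alike in its direction and unlike in its size. In sgControl, 25% of 22723 genes tested rose and 24.8% fell, and 19.3% changed at least 2-fold; in the knockout 14.9% of 18546 rose and 15.1% fell, and 3.8% changed at least 2-fold. Responders of at least 2-fold numbered 4375 in sgControl and 705 in the knockout, and 389 genes were responders in both, 301 of them moving the same way and 88 moving opposite ways.

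Responders were then placed in classes by their response pattern. A response was called lost where the 95% interval of the knockout response lay within 0.5 of zero on the log2 scale and the interaction passed the test. Responders changed at least 2-fold in at least one genotype. A response was called kept where both genotypes passed the test in the same direction and the interval of the interaction lay within 0.5 of zero. It was called reversed where the responses passed the test in opposite directions, with a change of at least 0.5 on the log2 scale in the other genotype, and gained where the knockout responded and the sgControl interval lay within 0.5 of zero. Weakened and enlarged genes changed in the same direction in both genotypes with a significant interaction. Responses and interactions define these classes, so their values below are a description of the members.

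At these limits most of the sgControl responders that could be classified were lost. Of the sgControl responders, 1109 (25.3%) were lost, 595 (13.6%) weakened, 241 (5.51%) reversed and 23 (0.526%) kept, and 2395 (54.7%) could not be resolved. Of the genes tested for the interaction, 361 (1.72%) were lost responses upwards and 748 (3.57%) lost responses downwards. Weakened responses made up 375 (1.79%) upwards and 220 (1.05%) downwards, and reversed ones 52 (0.248%) that rose in sgControl and 202 (0.965%) that fell there. Kept genes numbered 18 upwards (0.086%) and 8 downwards (0.0382%), enlarged genes 25 (0.119%) and 6 (0.0287%), and gained genes 11 (0.0526%) and 6 (0.0287%). The width of 0.5 sets the size of the kept class: with a width of 1, chosen after these counts were seen, 192 genes upwards and 74 downwards were kept and 752 and 1308 lost. It also sets which class is largest: with a width of 0.3, 164 increases and 316 decreases were lost and 436 and 338 were weakened.

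**Figure D1:**
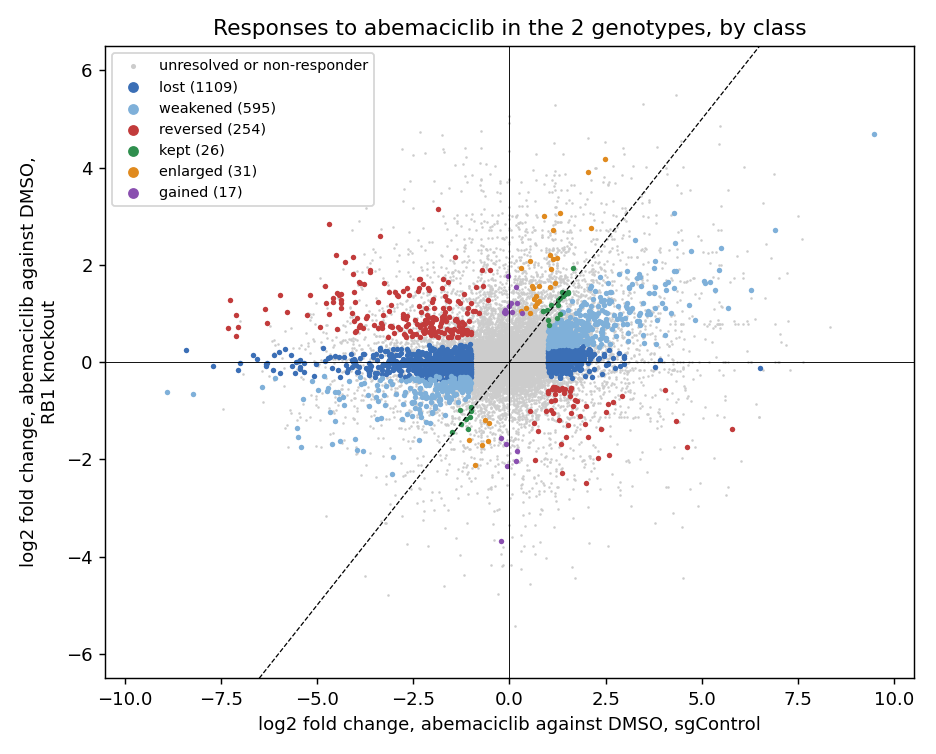
Log2 fold change in abemaciclib against DMSO in sgControl (x axis) and *RB1*-knockout cells (y axis) for each of the 20932 genes tested for the interaction, coloured by class, with the line of equal response dashed. The 1109 lost genes lie along the horizontal axis by definition, and the 254 reversed genes in the upper left and lower right, 202 of them in the upper left.

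Genes that fell in sgControl and lost this response included many of cell division. Thymidylate synthase, *TYMS* (chromosome 18, positions 657653 to 673578), which makes the thymidine nucleotide for DNA, had normalized counts of 10056, 9241 and 9607 in sgControl under DMSO and 176, 196 and 194 in abemaciclib. In the knockout it was at 8729, 8750 and 8658 in DMSO and 9509, 9785 and 9706 in abemaciclib. The treated sgControl libraries thus stood alone far below the other 9. The log2 fold change was −5.67 ± 0.075 (SE) in sgControl and 0.15 ± 0.048 in the knockout, and the interaction 5.82 ± 0.089. *HMGB2*, a chromatin protein abundant in dividing cells, had an interaction of 5.00 ± 0.084, cyclin A2 (*CCNA2*) one of 4.80 ± 0.087 and the centromere protein gene *CENPF* one of 3.60 ± 0.13, all with adjusted p-values of 1.03e-165 or smaller in DESeq2.

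The lists of division genes differed in how many members were lost. Of 44 mitotic spindle and kinetochore genes tested, 43 fell in sgControl, 36 were lost and 4 weakened, and the median response was −2.60 in sgControl and −0.11 in the knockout, against 0.0039 and 0.025 over all genes tested. Of 42 replication licensing and fork genes, 41 fell, 28 were lost and 5 weakened, with medians of −1.39 and −0.19. Of 28 homologous recombination and Fanconi genes, which repair broken and crosslinked DNA, 25 fell, 15 were lost and 3 weakened, with medians of −1.48 and −0.20. Among 20 enzymes of nucleotide supply all 20 fell, with medians of −0.76 and −0.14, and 6 were lost, 3 weakened and 11 changed too little to be responders. The 33 E2F, cyclin E and pocket protein genes held 8 lost and 3 weakened decreases, 1 lost increase (*CCND1*) and 19 non-responders. In sgControl 24 of them fell and 5 rose, among them *E2F3* (0.66 ± 0.064) and *LIN37* (0.74 ± 0.17), named after their values were seen. *E2F1* (−0.99 ± 0.056 in sgControl) and *CCNE1* (−0.96 ± 0.070), chosen here after their values were seen, fell just outside the 2-fold limit, whereas *MCM4* (−1.16 ± 0.041) was inside it. *MKI67* is an example of an unresolved gene: the model's interval for its knockout response of −0.28 ± 0.20 was too wide, although its interaction of 5.97 ± 0.28 was large.

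Outside the division lists, the lost decreases with the largest interaction, among those whose mean normalized count reached 200, were in genes of other kinds. *FAM20C*, a kinase of secreted proteins, had normalized counts of 237, 214 and 192 in sgControl under DMSO and 0, 0 and 1.76 in abemaciclib, no more than 3 counts in any treated library. Set against a floor of 3 counts in each of those libraries it was at least 75.4-fold lower, a bound that covers counting error only. In the knockout it stood at 1178 to 1244 in DMSO and 1370 to 1451 in abemaciclib, above every sgControl library. *PRIMA1*, which anchors acetylcholinesterase in membranes, had 977, 974 and 958 counts in sgControl under DMSO and 3.23, 7.08 and 3.52 in abemaciclib, but 1120 to 1257 and 1063 to 1151 in the knockout. *DPYSL5*, a neuronal protein of axon guidance, and *PIM1*, a serine/threonine kinase of cytokine signalling, had interactions of 6.99 ± 0.27 and 6.91 ± 0.48. *GAREM2*, an adaptor protein gene, had 46.5 to 78.1 counts in untreated sgControl cells. In treated sgControl cells it was at least 22-fold lower by the same floor. It had 334 to 385 counts in untreated and 356 to 429 in treated knockout cells, above every sgControl library. Its mean count reached the limit through the knockout libraries. The same was true of *FAM20C*, and of *CTTNBP2*, *SPSB4*, *MYO3A* and *TMSB15A* below.

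Chromatin, p53 target and signalling lists held smaller groups of lost decreases. Over all genes tested 24.8% fell in sgControl, and 3.57% of those tested for the interaction were lost decreases. Of 41 chromatin and DNA methylation genes, 27 fell in sgControl and 10 decreases were lost, among them *LMNB1*, a lamin of the nuclear envelope (interaction 2.95 ± 0.061), and *HMGB1* (1.68 ± 0.084). *DNMT1*, *UHRF1* and *EZH2*, chosen after their values were seen, had interactions of 1.55 ± 0.096, 2.36 ± 0.22 and 2.90 ± 0.098; the first copies DNA methylation, the second guides it to new DNA and the third methylates histone H3. Of 26 p53 target genes 17 fell and 7 decreases were lost, led by *CDKN1A*, the gene of the CDK inhibitor p21, with 18643 to 21753 normalized counts in DMSO and 4428 to 4855 in abemaciclib in sgControl, and 28706 to 30306 and 23147 to 23539 in the knockout. Its response of −0.35 ± 0.062 in the knockout passed the test but was within the limit of a lost response. *NOTCH1*, the receptor gene, and its target *NRARP* were lost among 30 Wnt, Notch and TGF-beta targets, with interactions of 1.25 ± 0.18 and 0.99 ± 0.12.

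Promoters of the lost decreases held more E2F and cell cycle homology region (CHR) motifs than promoters at large. The sequences below are from RefSeq (GRCh38.p14) and run from 250 bases before to 50 bases after the gene's start, 5′ to 3′ on the gene's strand. Members of the replication, nucleotide supply and repair lists are shown, since their promoters hold the motifs that E2F, or the complex that binds CHR elements, is known to recognise. In the first 3, capitals mark an E2F motif (TTTGGCGC, TTTCCCGC, TTTGCCGC or TTTCGCGC on either strand), and in *MCM2* 2 such matches overlap. In the last 2, capitals mark the CHR motif TTTGAA on either strand.
MCM2 chr3:127598161-127598460 (plus strand): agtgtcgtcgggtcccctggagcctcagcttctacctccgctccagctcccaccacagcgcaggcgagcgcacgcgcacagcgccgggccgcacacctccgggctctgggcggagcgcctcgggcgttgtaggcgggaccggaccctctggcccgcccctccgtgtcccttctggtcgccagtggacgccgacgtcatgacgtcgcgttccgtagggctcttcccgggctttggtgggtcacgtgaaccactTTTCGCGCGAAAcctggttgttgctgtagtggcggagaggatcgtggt
TYMS chr18:657403-657702 (plus strand): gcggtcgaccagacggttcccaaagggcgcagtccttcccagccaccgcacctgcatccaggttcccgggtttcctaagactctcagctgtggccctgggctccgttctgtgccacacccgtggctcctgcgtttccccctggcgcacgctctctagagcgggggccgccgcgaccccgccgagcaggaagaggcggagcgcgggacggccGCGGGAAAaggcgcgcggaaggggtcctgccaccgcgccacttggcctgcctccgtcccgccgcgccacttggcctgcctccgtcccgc
EXO1 chr1:241847954-241848253 (plus strand): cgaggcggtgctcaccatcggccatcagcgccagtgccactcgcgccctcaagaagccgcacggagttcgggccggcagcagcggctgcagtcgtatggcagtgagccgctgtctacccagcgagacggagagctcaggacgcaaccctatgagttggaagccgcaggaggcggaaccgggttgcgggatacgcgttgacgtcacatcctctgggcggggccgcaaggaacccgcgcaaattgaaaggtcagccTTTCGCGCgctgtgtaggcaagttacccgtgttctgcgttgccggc
UBE2T chr1:202341887-202342186 (minus strand): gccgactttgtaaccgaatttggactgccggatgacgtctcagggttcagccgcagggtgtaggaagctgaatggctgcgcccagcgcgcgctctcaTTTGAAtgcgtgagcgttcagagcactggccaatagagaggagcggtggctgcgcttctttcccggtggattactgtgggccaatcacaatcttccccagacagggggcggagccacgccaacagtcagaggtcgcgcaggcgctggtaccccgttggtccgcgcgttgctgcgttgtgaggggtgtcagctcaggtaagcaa
RRM1 chr11:4094435-4094734 (plus strand): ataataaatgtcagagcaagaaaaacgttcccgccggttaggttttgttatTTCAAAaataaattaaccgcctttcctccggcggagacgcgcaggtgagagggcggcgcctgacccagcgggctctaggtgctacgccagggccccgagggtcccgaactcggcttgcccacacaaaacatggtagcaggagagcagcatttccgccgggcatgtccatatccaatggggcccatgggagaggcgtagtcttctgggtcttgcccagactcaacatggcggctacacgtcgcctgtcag

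*MCM2*, a subunit of the replicative helicase, fell from 16279 to 17638 normalized counts to 4509 to 4756 in sgControl and from 20206 to 21300 to 16274 to 17297 in the knockout. *EXO1*, an exonuclease of mismatch and break repair, was weakened, with 3708, 3941 and 3821 counts falling to 323, 290 and 290 in sgControl and 3293, 3486 and 3333 falling to 2134, 2083 and 2113 in the knockout. *UBE2T*, the ubiquitin-conjugating enzyme of the Fanconi pathway, had an interaction of 2.20 ± 0.10, and *RRM1*, the large subunit of ribonucleotide reductase, one of 1.67 ± 0.056. Of 586 promoters of lost decreases 68 (11.6%) held an E2F motif and 109 (18.6%) a CHR motif, against 5.11% and 10% of the 12609 promoters of genes tested. Over all 27305 promoters in the table the shares were 3.33% and 15.4%. Among weakened decreases the shares were 8.18% and 18.9% of 159 promoters, among lost increases 1.78% and 5.69% of 281, and among reversed decreases 3.33% and 9.33% of 150. A CCAAT box (CCAAT on either strand) was in 41.6% of promoters of lost decreases and 36.3% of those tested. Median GC content was 66.8% in lost decreases, 68.3% in lost increases and 64.7% in all tested, and its part in these shares was not tested. A match is a description of the letters and not a bound site.

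Increases that were lost in the knockout included secretory, lipid and lysosomal genes. *CYP4B1*, a cytochrome P450 enzyme (chromosome 1, positions 46757838 to 46819413), had normalized counts of 252, 329 and 272 in sgControl under DMSO and 27275, 25596 and 24032 in abemaciclib. The knockout libraries had 169, 112 and 142 in DMSO and 106, 143 and 134 in abemaciclib, all below every sgControl library. The interaction of −6.62 ± 0.18 was the largest among lost increases whose mean normalized count reached 200. *PPIF*, the mitochondrial peptidyl-prolyl isomerase cyclophilin D, went from 9979, 9729 and 9417 to 72237, 76597 and 78228 in sgControl, whereas the 6 knockout libraries lay between 8103 and 8790 (interaction −3.01 ± 0.071). *IGFBP3*, a secreted binder of insulin-like growth factors, had 38.8 to 54.2 counts in untreated and 593 to 766 in treated sgControl cells, and 45.3 to 70.5 in the knockout (−3.85 ± 0.29). *VSTM2L* and the zinc finger gene *ZNF552* had interactions of −3.87 ± 0.20 and −2.93 ± 0.14. *CLDN2*, a claudin that forms ion pores in tight junctions, rose from 59.6 to 92.5 counts in untreated to 9236 to 10829 in treated sgControl cells, and had 8.81 to 17.1 in the knockout. Its knockout response of 0.35 ± 0.37 had too wide an interval, which left it unresolved.

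Among lipid genes *SREBF1*, the transcription factor that drives fatty acid synthesis, rose from 20762 to 21774 to 62810 to 65320 normalized counts in sgControl and went from 15818 to 16351 to 18602 to 19191 in the knockout (interaction −1.36 ± 0.054). Its known target *SCD*, a fatty acid desaturase, had an interaction of −0.86 ± 0.076. The list of 14 fatty acid synthesis genes as a whole did not move one way: 6 rose and 4 fell in sgControl, and its sgControl median of 0.12 became −0.021 with total-count scaling. Sterol genes went the other way, with 18 of 24 lower in sgControl and 4 lower in the knockout. Over all genes tested 24.8% and 15.1% were lower, so the knockout count was near the background.

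Of 45 lysosome and V-ATPase genes, 37 rose in sgControl and 17 in the knockout, with medians of 0.59 and 0.10. Most of these changes were under 2-fold, and 7 increases were lost and 3 weakened. *ATP6AP1*, an accessory subunit of the proton pump, had 18387 to 22903 normalized counts in DMSO and 61566 to 68110 in abemaciclib in sgControl, against 18701 to 19815 and 20447 to 20596 in the knockout. Cathepsin D (*CTSD*), a lysosomal protease, also had no detected response in the knockout (−0.077 ± 0.13), but there it stood at 83159 to 96778 in DMSO, above the 60583 to 68314 that treated sgControl cells reached. Among 24 autophagy genes 16 rose in sgControl and 2 in the knockout, where 9 fell. For both lists the background over all genes tested was 25% rising in sgControl. In the knockout it was 14.9% rising and 15.1% falling. *MAP1LC3B*, which coats autophagosome membranes, *BECN1* and *WIPI1* were lost, with interactions of −1.21 ± 0.09, −0.89 ± 0.075 and −1.80 ± 0.085.

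In lost responses the median knockout level in DMSO was near that of untreated sgControl cells. The knockout level in DMSO was placed on a scale from 0, the sgControl level in DMSO, to 1, the sgControl level in abemaciclib, using log2 mean normalized counts. Of 748 lost decreases 682 (91.2%) lay below 0.25 and 3 above 0.75, with a median of −0.0219. Of 361 lost increases 302 (83.7%) lay below 0.25 and 9 above 0.75, with a median of −0.022. These counts include levels beyond that of untreated sgControl on the side away from treated cells, in 407 lost decreases (54.4%) and 188 lost increases (52.1%). The untreated sgControl samples enter both ends of this scale, so it is a description. In abemaciclib the knockout was at a median log2 difference of 1.65 above sgControl in lost decreases and −1.27 in lost increases, against 0.013 over all genes tested.

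**Figure D2:**
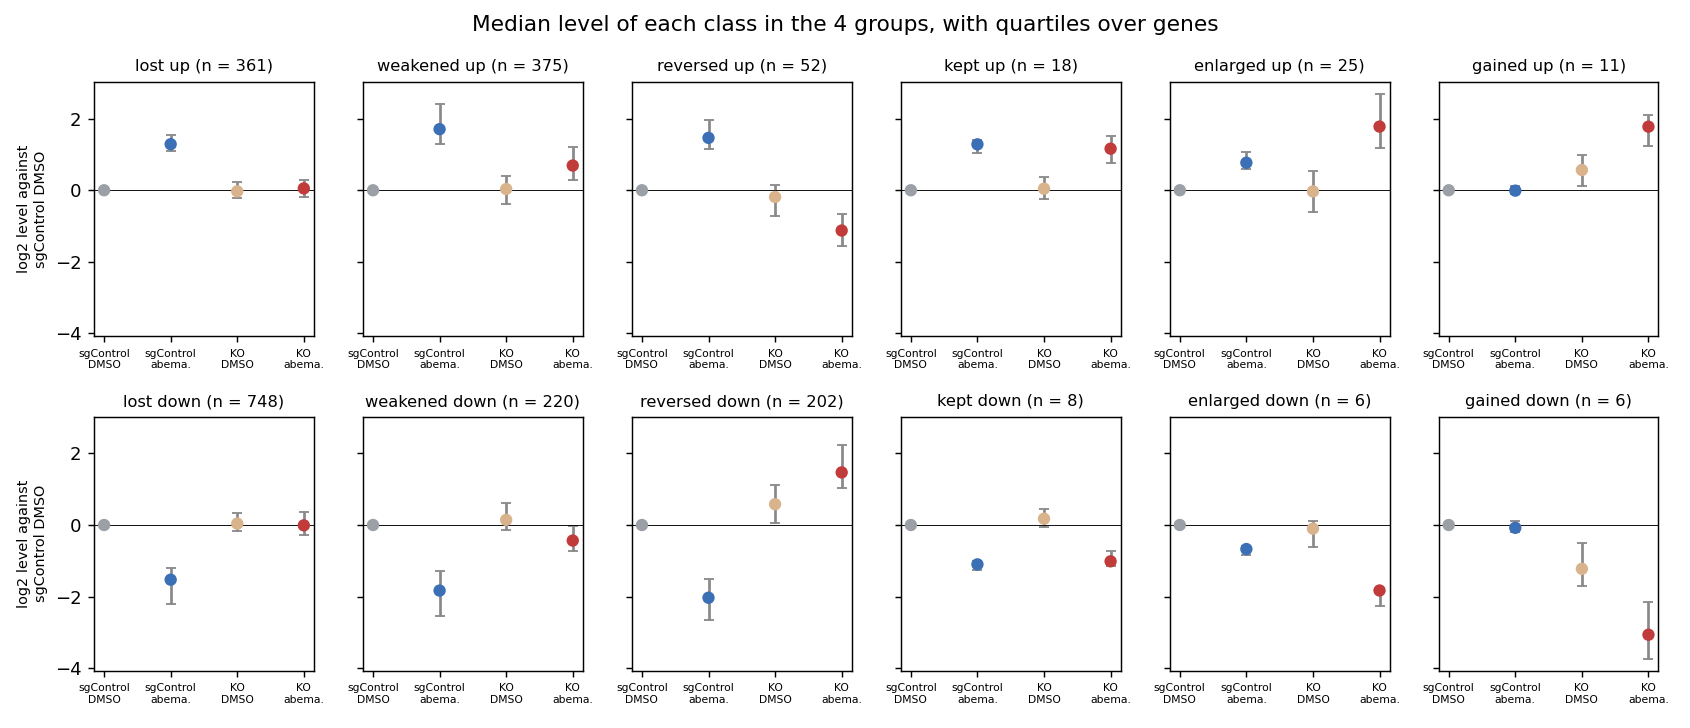
Median log2 level of the genes in each class in the 4 groups, relative to sgControl in DMSO (y axis), with bars from the lower to the upper quartile over genes. Lost and weakened classes have knockout levels in DMSO near 0, whereas reversed decreases sit at 0.58, gained increases at 0.57 and gained decreases at −1.23.

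Weakened genes kept a detected part of the response, as some lost genes also did. *RRM2*, the regulated subunit of ribonucleotide reductase, had normalized counts of 11138, 10909 and 10824 in DMSO and 42.0, 39.0 and 30.8 in abemaciclib in sgControl. In the knockout it fell from 8378, 8192 and 8468 to 5289, 5123 and 5477, a log2 fold change of −0.66 ± 0.047 against −8.21 ± 0.14. The replicates did not overlap in either genotype. *MCM10*, an initiator of replication, fell by 0.88 ± 0.079 in the knockout, *TK1*, which salvages thymidine, by 0.72 ± 0.082 and the mitotic kinase gene *AURKB* by 0.33 ± 0.085 on the log2 scale. The knockout response of *AURKB* was no larger than that of *CDKN1A* (−0.35 ± 0.062), a lost gene. The wider interval of *AURKB* kept it out of the lost class, so the classes do not rank genes by the response that remained. The model uses 1 estimate of the spread per gene for all 4 groups, so knockout intervals also carry the spread in sgControl. Over the list of replication genes 20 of 42 fell in the knockout and 1 rose, and over the mitotic list 16 of 44 fell and 2 rose, against the background of 15.1% and 14.9%. *CTTNBP2*, a cortactin-binding protein of neurons, had 73.5 to 92 normalized counts in untreated sgControl cells and 0 in each treated library. By the floor of 3 counts it was at least 29.1-fold lower. In the knockout it fell from 557 to 684 to 378 to 428, above every sgControl library.

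Among weakened increases whose mean normalized count reached 200, the largest interaction was that of *PDZK1*, a scaffold protein and oestrogen-responsive gene. It rose from 1031, 1241 and 1250 to 60811, 57655 and 61122 normalized counts in sgControl and from 257, 252 and 228 to 567, 489 and 539 in the knockout, so that treated knockout cells stayed below untreated sgControl cells. *GP2*, a membrane glycoprotein, had an interaction of −3.86 ± 0.39. *PGLYRP2*, a peptidoglycan-cleaving amidase, had one of −4.19 ± 0.93, which rests on 0 to 3.41 normalized counts in untreated knockout libraries and was not called without the third of these. All 5 weakened genes of the mitochondrial genome rose in both genotypes, for example *MT-CO1*, a subunit of cytochrome oxidase, by 1.52 in sgControl and 0.83 ± 0.18 in the knockout. Of 15 such genes 14 rose in sgControl and 11 in the knockout, beside the rise in the share of mitochondrial counts given above. In the extracellular matrix list 7 of 31 genes were weakened increases, including *LAMB2*, a laminin chain (interaction −1.08 ± 0.095), *COL4A5*, a collagen of basement membranes (−0.93 ± 0.12), and *TIMP2*, a protease inhibitor (−1.39 ± 0.11).

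Genes that fell in sgControl and rose in the knockout were the larger of the reversed classes, with a median response of −2.20 and 0.88. *C1QL1*, a secreted C1q-like protein, had normalized counts of 682, 593 and 497 in sgControl under DMSO and 7.54, 6.20 and 7.93 in abemaciclib. In the knockout it went from 622, 700 and 665 to 1451, 1379 and 1377. Treated cells of the 2 genotypes thus lay on opposite sides of all untreated libraries. *TMSB15A*, a thymosin that binds actin monomers, and *MYO3A*, an unconventional myosin, had interactions of 6.83 ± 0.36 and 8.00 ± 0.60. *SPSB4*, an adaptor of ubiquitin ligases, was at no more than 3 counts in each treated sgControl library, at least 58.1-fold lower than untreated, and rose from 292 to 419 to 537 to 625 in the knockout.

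Receptors, matrix proteins and interferon-stimulated genes were among these reversed decreases. *EGFR*, the epidermal growth factor receptor gene, had 113, 186 and 171 normalized counts in DMSO and 42.0, 38.1 and 22.9 in abemaciclib in sgControl, and 314, 308 and 272 and then 439, 486 and 450 in the knockout. *MET*, the receptor of hepatocyte growth factor, and *EPHA4*, an ephrin receptor, had interactions of 2.80 ± 0.26 and 3.33 ± 0.29. Together with the ligand gene *NRG1*, these 4 of 26 genes of receptor tyrosine kinases and ligands were reversed. Reversed decreases made up 0.965% of all genes tested for the interaction. In the matrix list 4 of 31 genes were reversed decreases, the laminin chains *LAMB1* (3.20 ± 0.22) and *LAMB3*, the collagen gene *COL4A2* and tenascin C (*TNC*, 4.28 ± 0.46). The matrix list also held the 7 weakened increases given above, and 15 of its genes rose and 9 fell in sgControl. *CCN2*, a matrix protein induced by YAP and growth factors, went from 74.9 to 85.7 to 6.17 to 22.1 in sgControl and from 119 to 150 to 349 to 445 in the knockout. *HDAC9*, a histone deacetylase, *TCF7*, a transcription factor of Wnt signalling, and *ENO2*, a glycolytic enolase, had interactions of 4.40 ± 0.33, 5.90 ± 0.43 and 2.41 ± 0.07. *NRG1*, *LAMB3* and *COL4A2* were named after their values were seen.

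Interferon-stimulated genes fell less uniformly. Of 43 tested, 15 fell and 11 rose in sgControl, whereas 24 rose and 2 fell in the knockout, with medians of −0.16 and 0.65. Over all genes tested 24.8% fell and 25% rose in sgControl, so the rises there were near the background. In the knockout 14.9% of all genes tested rose and 15.1% fell. The 4 reversed members were *IFIT1*, *IFIT5*, *CMPK2* and *TRIM22*, all antiviral proteins, named after their values were seen. The sgControl decrease of *CMPK2* rests on few counts, 2.79 to 10.7 in DMSO and 0 in each treated library. *IFIT5*, the most abundant of them, changed by −1.57 ± 0.18 in sgControl and 0.93 ± 0.14 in the knockout. Among genes of peptide presentation, *PSMB9*, a subunit of the immunoproteasome, went from 215 to 283 to 59.3 to 64.3 in sgControl and from 298 to 394 to 507 to 529 in the knockout. Its neighbour *PSMB8* fell by 0.47 ± 0.11 in sgControl and rose by 1.11 ± 0.097 in the knockout, and was left unresolved because its sgControl change was under the 0.5 that the reversed class asks for. Of 12 MHC class II genes 3 rose in sgControl and 11 in the knockout, and the interaction was higher in 4 and lower in 3. The 3 that rose in sgControl were weakened, for example *HLA-DQB1*, by 1.93 ± 0.098 in sgControl and 0.67 ± 0.097 in the knockout. *CD74*, the invariant chain, had 1.89 to 10.8 normalized counts in all sgControl libraries and 236 to 283 in untreated and 933 to 1199 in treated knockout libraries.

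Genes that rose in sgControl and fell in the knockout numbered 52 and included abundant secreted proteins of luminal epithelium. *MGP*, matrix Gla protein (chromosome 12, positions 14880864 to 14885857), had normalized counts of 25173, 21590 and 17711 in sgControl under DMSO and 458454, 406009 and 421532 in abemaciclib. In the knockout it was at 4045, 4286 and 4397 in DMSO and 1855, 1782 and 1900 in abemaciclib, so the 4 groups formed separate levels with the treated groups at the ends. *TFF1*, a trefoil peptide and classical oestrogen target, had 58531 to 82895 and 379148 to 431974 in sgControl and 14939 to 16945 and 8279 to 9319 in the knockout. *BPIFB1*, a secreted defence protein of mucosa, had an interaction of −7.16 ± 0.15, *PIP*, prolactin-induced protein, one of −4.60 ± 0.29 and clusterin (*CLU*), an extracellular chaperone, one of −3.63 ± 0.15. The 5 were among 29 secreted luminal and defence genes, of which 19 rose and 3 fell in sgControl and 7 rose and 10 fell in the knockout, with 4 weakened increases and medians of 1.68 and −0.34. *GABARAPL1*, which works in autophagosome formation, went from 812 to 917 to 2465 to 2734 in sgControl and from 866 to 904 to 407 to 458 in the knockout. *AKR1C3*, a steroid-converting reductase, had an interaction of −3.75 ± 0.23.

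Reversed decreases also differed between the genotypes before treatment. In DMSO 68 of the 202 reversed decreases (33.7%) were at least 2-fold higher in the knockout and 4 at least 2-fold lower, and of all genes tested 6.52% and 4.05% were. Of the 52 reversed increases 6 were at least 2-fold higher and 8 at least 2-fold lower. The median difference was 0.58 in reversed decreases and −0.19 in reversed increases on the log2 scale. Such differences were not particular to reversed genes: the median was 0.57 in the 11 gained increases and −1.23 in the 6 gained decreases. Untreated samples enter both the class definition and this difference. At a median of 101 mean normalized counts the reversed decreases were also less abundant than lost decreases, at 1175. In 78 of the 202 reversed decreases and 23 of the 52 reversed increases the knockout response itself reached 2-fold.

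**Figure D3:**
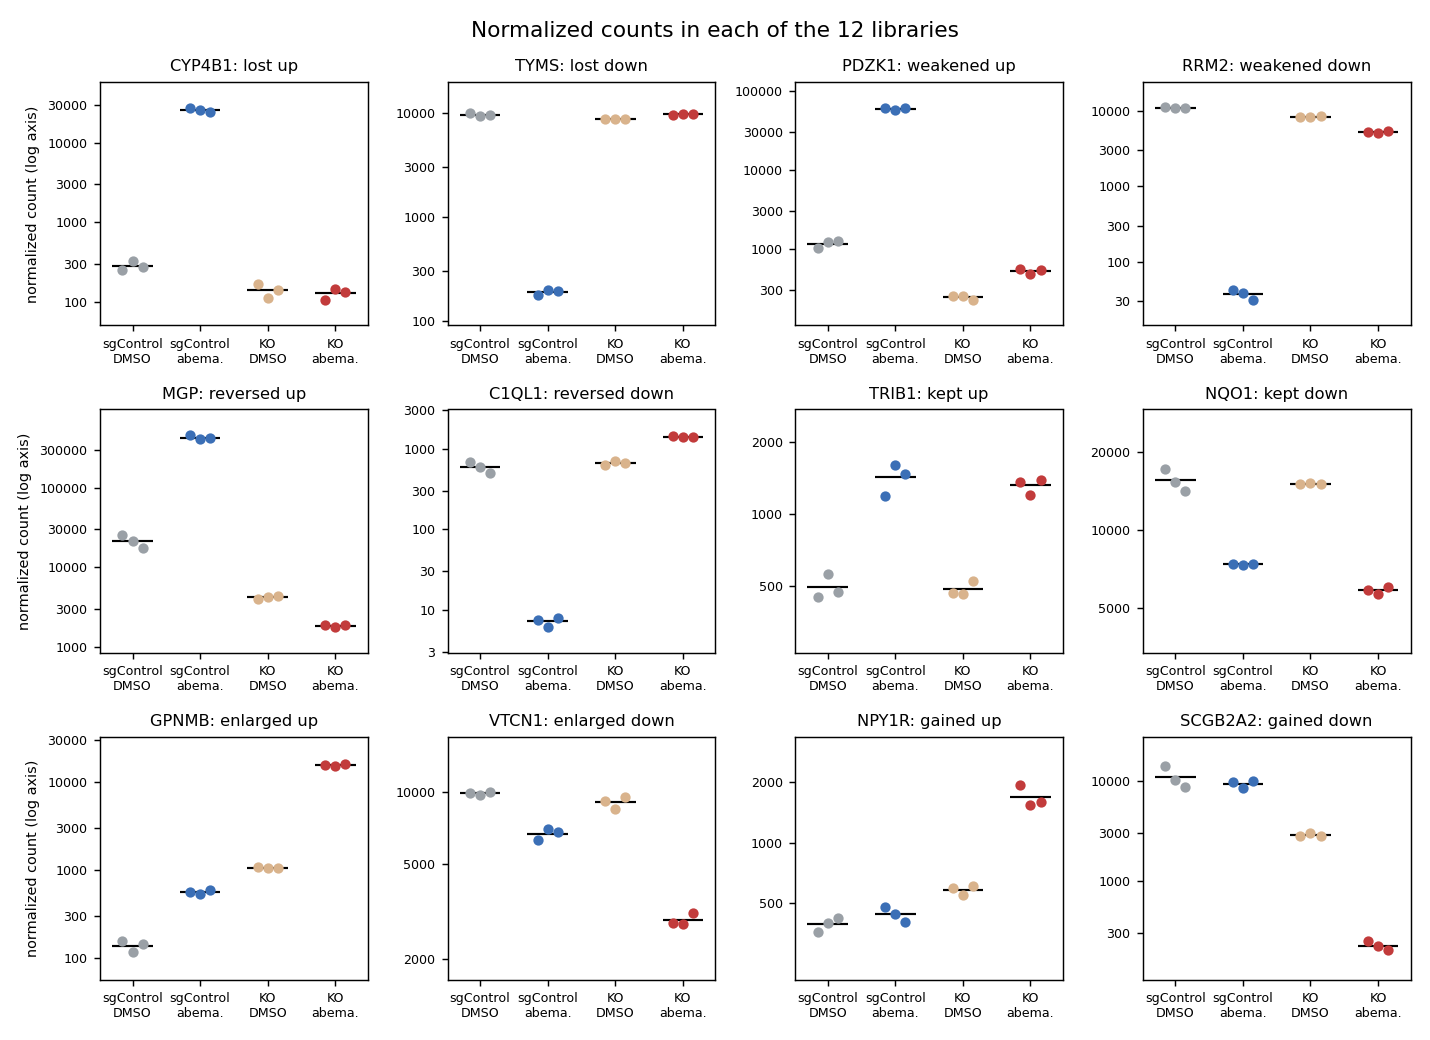
Normalized counts (log y axis) of 12 genes in each of the 12 libraries, 1 gene for each class and direction, with a line at the group mean. The groups are sgControl and *RB1*-knockout (KO) cells in DMSO and in abemaciclib (abema.); *TYMS* is low in treated sgControl libraries alone, *TRIB1* high in treated libraries of both genotypes and *SCGB2A2* lowest in treated knockout libraries.

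Kept genes, in which both genotypes responded alike, were few. *TRIB1*, a pseudokinase that targets proteins for degradation, rose from 447, 561 and 472 to 1188, 1601 and 1472 normalized counts in sgControl and from 465, 462 and 523 to 1360, 1195 and 1387 in the knockout. The interaction was −0.084 ± 0.17 (adjusted p = 0.751 in DESeq2), with a 95% interval within 0.5 of zero. *OPTN*, an autophagy receptor, rose by 1.45 ± 0.084 and 1.40 ± 0.084, and *ZFP36*, which destabilises inflammatory mRNAs, by 1.33 ± 0.093 and 1.32 ± 0.094. The histone genes *H2AC6* and *H3C10* and the histone pseudogene *H2BC20P* were also kept increases. Histone genes are near-identical to each other, so reads can be shared among them, and *H2BC20P* had an interaction of 0.28 ± 0.11 (adjusted p = 0.0343 in DESeq2), which was not called in 7 of the 12 fits that left out 1 library. *MT-TL1*, a mitochondrial transfer RNA gene, rose by 1.42 ± 0.16 and 1.39 ± 0.17 beside the higher mitochondrial share. *ZFP36* and *H3C10* were named after their values were seen.

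Of the 8 kept decreases 3 were targets of NRF2, the transcription factor of oxidative defence. *NQO1*, a quinone reductase (chromosome 16, positions 69706996 to 69726668), fell from 17263, 15309 and 14126 to 7406, 7332 and 7376 normalized counts in sgControl and from 15005, 15193 and 15105 to 5879, 5670 and 6015 in the knockout. *TXNRD1*, thioredoxin reductase, fell by 1.29 ± 0.061 and 0.99 ± 0.061, and malic enzyme *ME1*, which supplies NADPH, by 1.02 ± 0.047 and 1.14 ± 0.05. The interactions of *NQO1* and *TXNRD1*, −0.29 ± 0.094 and 0.30 ± 0.086, passed the test although they lay within the limits of the class, the first not with total-count factors (−0.16, adjusted p = 0.0526 in DESeq2). The NRF2 list as a whole was divided: of 21 genes 9 fell and 8 rose in sgControl, and 13 fell and 1 rose in the knockout. *PCDH19*, a protocadherin of cell adhesion, fell by 1.49 ± 0.11 and 1.44 ± 0.11, and *S1PR3*, a receptor for sphingosine 1-phosphate, by 1.26 ± 0.078 and 1.28 ± 0.078.

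Enlarged responses were stronger without *RB1*. *GPNMB*, a transmembrane glycoprotein of lysosomes and melanosomes, rose from 156, 115 and 142 to 568, 529 and 589 normalized counts in sgControl and from 1085, 1042 and 1039 to 15661, 15434 and 16083 in the knockout. Untreated knockout cells were thus already above treated sgControl cells, and the interaction was 1.87 ± 0.11. *EGR1*, an immediate early transcription factor of growth factor signalling, rose from 1738, 3206 and 3926 to 15686, 18170 and 16076 in sgControl and from 1608, 1720 and 1431 to 30406, 27294 and 28452 in the knockout. *ADRA2A*, an adrenergic receptor, rose by 0.29 ± 0.12 and 1.94 ± 0.13. Of 37 immediate early genes 20 rose and 12 fell in sgControl and 23 rose and 6 fell in the knockout, with medians of 0.67 and 0.75. Over all genes tested 25% rose and 24.8% fell in sgControl, and 14.9% rose and 15.1% fell in the knockout. The list held 4 weakened and 3 enlarged increases, against 1.79% and 0.119% of all genes tested. Its interaction was higher in 16 and lower in 10, against 21.1% and 20.3%. *JUN* and *IER2*, named after their values were seen, were enlarged with interactions of 0.64 ± 0.18 and 0.49 ± 0.19, whereas for *FOS* the interaction of 0.83 ± 0.48 did not pass the test (adjusted p = 0.16 in DESeq2). The enlarged decreases with the largest interaction among those whose mean normalized count reached 200 were *VTCN1*, a B7-family checkpoint ligand, from 9721 to 9965 to 6284 to 7016 in sgControl and from 8496 to 9521 to 2801 to 3135 in the knockout, *BAMBI*, a decoy receptor of TGF-beta (−0.72 ± 0.098), and *ALDH2*, the mitochondrial aldehyde dehydrogenase (−0.53 ± 0.12).

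Gained responses appeared in the knockout. The 6 decreases became 3 without sgControl replicate 3 in abemaciclib. *SCGB2A2*, which encodes the secreted protein mammaglobin A, had normalized counts of 14072, 10264 and 8688 in sgControl under DMSO and 9908, 8471 and 10008 in abemaciclib, ranges that overlap. In the knockout it fell from 2847, 2996 and 2831 to 251, 225 and 204, a log2 fold change of −3.67 ± 0.15. *SCGB1D2*, whose product pairs with mammaglobin A, fell by 2.04 ± 0.20, and *RFLNA*, a filamin regulator, by 2.14 ± 0.12 in the knockout. *DUSP4*, a phosphatase that switches off MAP kinases, fell from 15609, 15686 and 15106 to 4451, 4200 and 4362 and was slightly higher in treated sgControl cells (0.19 ± 0.052). *BCAS1* fell by 1.69 ± 0.052. The gained increases included *NPY1R*, the neuropeptide Y receptor (from 593, 548 and 603 to 1948, 1537 and 1597), *PER3*, a gene of the circadian clock (1.07 ± 0.13), *DTX3L*, a ubiquitin ligase of the interferon response (1.01 ± 0.089), *RELB*, a subunit of NF-kappaB (1.21 ± 0.10), and *PMAIP1*, which encodes the pro-apoptotic protein NOXA (1.03 ± 0.12). In sgControl their log2 fold changes lay between −0.12 and 0.18. *NPY1R* overlaps *NPY5R*, and *DTX3L* overlaps *PARP9*, on the opposite strand, whose reads cannot be told apart if counting ignored strand.

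Oestrogen response genes were spread over most classes. Of 88 tested 61 rose in sgControl and 31 in the knockout, while 16 and 18 fell, and the medians were 0.69 and 0.072. Over all genes tested 25% rose in sgControl and 14.9% in the knockout, and 24.8% and 15.1% fell. The interaction was lower in the knockout for 50 and higher for 22, against 20.3% and 21.1% of all genes tested. Of the increases 13 were lost, 9 weakened, 3 reversed and 3 enlarged, and 1 was gained. *CCND1*, the cyclin D1 gene, rose from 61816 to 69889 to 147614 to 156886 normalized counts in sgControl, whereas the knockout libraries lay between 54388 and 58693. *TFF1* was reversed, as given above. *PGR*, the progesterone receptor gene and an oestrogen target, was enlarged: it had 4058, 5701 and 5562 and then 6447, 6269 and 6151 in sgControl, and 2924, 2881 and 2661 and then 5663, 6194 and 5747 in the knockout (interaction 0.76 ± 0.15). *CXCL12*, a chemokine, and *FCMR* were the other enlarged members, with interactions of 1.16 ± 0.19 and 0.51 ± 0.17, both named after their values were seen. The receptor gene itself, *ESR1*, had 9834, 12615 and 13711 counts in DMSO and 17473, 18712 and 18218 in abemaciclib in sgControl, and 8783, 8128 and 8166 and then 6169, 6833 and 6157 in the knockout, with responses of 0.59 ± 0.099 and −0.39 ± 0.099 that were below 2-fold. Those of *FOXA1* (0.46 ± 0.055 and −0.12 ± 0.055) and *GATA3* (0.28 ± 0.065 and −0.21 ± 0.065), luminal transcription factors, were smaller still. The 13 luminal markers did not all move this way: 8 rose and 3 fell in sgControl, and 2 rose and 4 fell in the knockout. The keratin gene *KRT8* went the other way (−0.59 ± 0.10 and 0.35 ± 0.10). The interaction was higher in 3 of the 13 and lower in 9.

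**Figure D4:**
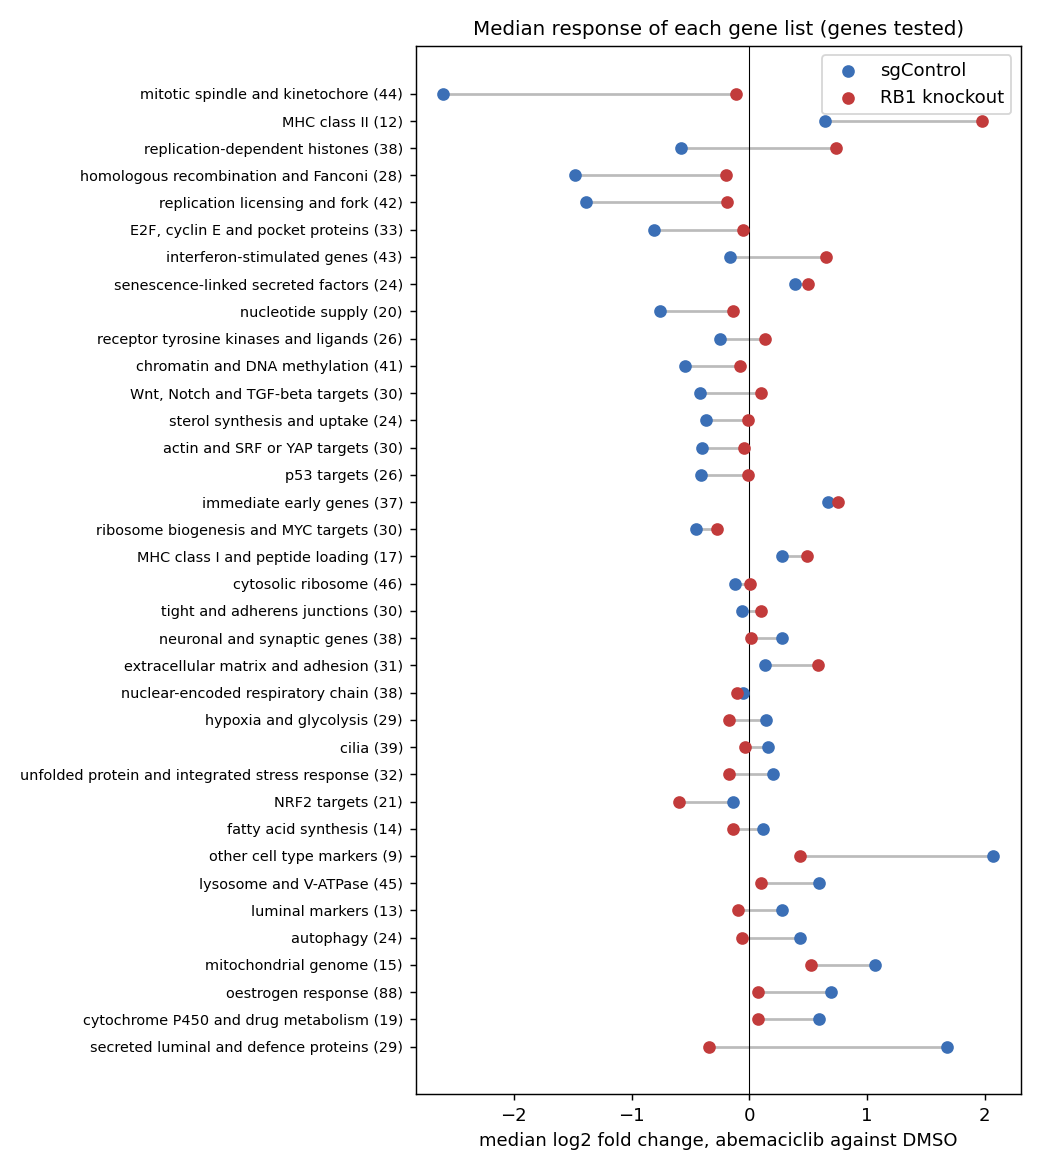
Median log2 fold change in abemaciclib against DMSO (x axis) of each gene list in sgControl (blue) and *RB1*-knockout cells (red), with the number of genes tested in brackets, ordered by the median interaction. The mitotic list lies at −2.60 in sgControl and −0.11 in the knockout, and the secreted luminal list at 1.68 and −0.34.

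In several lists no response class held many members, although some of these lists differed between the genotypes. None of 46 ribosomal protein genes was a responder in either genotype, and their medians were −0.12 and 0.0042. Ribosome biogenesis and MYC target genes fell in both genotypes, 22 of 30 in sgControl and 20 of 30 in the knockout, with medians of −0.45 and −0.27 and 1 lost decrease, *FBL*, a methyltransferase of ribosomal RNA. Of 38 nuclear-encoded respiratory chain genes 1 was a responder, unresolved, and of 39 cilium genes 1 was lost and 1 weakened. Of 38 replication-dependent histone genes 13 rose and 17 fell in sgControl, and 16 rose and 0 fell in the knockout. Their medians were −0.58 and 0.74, and the interaction was higher in 19 and lower in 3. The genotypes thus differed on this list, although 24 of its members were unresolved. Unfolded protein and integrated stress response genes were mixed, with 16 higher and 9 lower of 32 in sgControl and 7 and 13 in the knockout. Lists of hypoxia and glycolysis, junction, neuronal and senescence-linked genes were likewise divided between directions. Of 19 cytochrome P450 and drug metabolism genes 12 rose and 3 fell in sgControl, and the interaction was higher in 2 and lower in 7. Of 30 actin and SRF or YAP target genes 5 rose and 15 fell in sgControl, and the interaction was higher in 14 and lower in 3. For the 30 ribosome biogenesis and MYC target genes it was higher in 14 and lower in 6. Over all genes tested it was higher in 21.1% and lower in 20.3%.

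**Figure D5:**
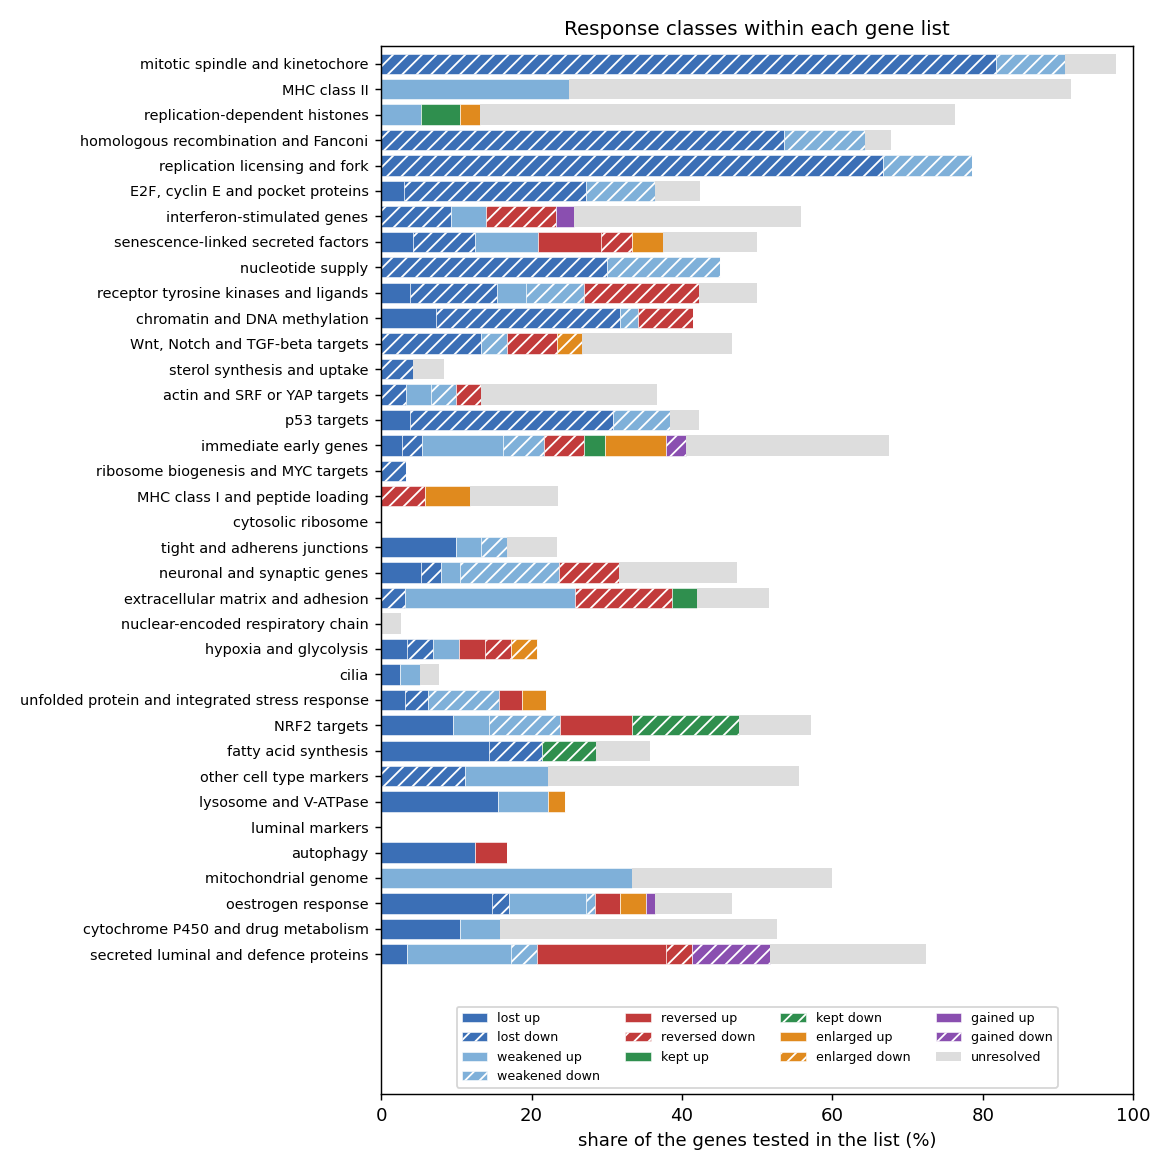
Share of the genes tested in each list (x axis, %) that fell in each response class, with hatching for decreases and grey for unresolved responders; the rest of each bar up to 100% is non-responders. Lost decreases fill most of the mitotic list, 36 of 44 genes, and the secreted luminal list holds 5 reversed increases and 3 gained decreases among 29 genes.

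The unresolved genes were mostly of low abundance. They numbered 2659, of which 2651 (12.7% of genes tested for the interaction) had an interaction test, and 2460 (92.5%) had a mean normalized count under 200. The median was 19.8, against 812 in the classes together. In 1207 the sgControl response and the interaction passed the test and the knockout response did not but had too wide an interval, and in 864 neither knockout response nor interaction passed. In 267 both responses passed in the same direction and the interaction did not. Another 228 were responders of the knockout without a call in sgControl, so the gained class is a lower count of such genes. Others were left out by the limits of the classes and not by a wide interval, such as *PSMB8* above.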

How the data were processed

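RNA sequencing of 12 libraries was deposited as raw counts per gene. Per the labels and the study's methods, the authors trimmed reads with BBDuk, aligned them to hg38 with STAR 2.7.5b and counted them with featureCounts 2.0.1 on GENCODE 35. The counts were deposited without normalization or pooling. Strand and multimapping settings are not given in the sources used here; the labels name a directional whole-transcript kit and the methods a 3′ kit, which would decide whether counts depend on transcript length. Of the 57 genes that head a class or are named individually in the rule for named genes, 24 overlap another gene on the other strand and 10 on the same strand.

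Groups came from the sample titles. DESeq2 1.42.0 (R 4.3.3) fitted 1 model with a term for group to all 12 libraries, with median-of-ratios size factors and no shrinkage. Wald tests, two-sided, gave both responses and their difference, adjusted by Benjamini-Hochberg after independent filtering; errors are SE, or SD over 3 replicates. The 44 rows named NA, which held 0% of the counts in every library, were left out. Both DESeq2 and edgeR 4.0.16 were tested on simulated data. Depth, 39907318 to 81636393 counts, limits genes of low count. Coordinates are from GENCODE 44 on the same build. The 95% intervals of responses come from the model's SE and include the spread between libraries, estimated per gene over all 4 groups together. Floors cover counting error only.

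The members, the 36 gene lists and the class rule were chosen with earlier results of these data known. Named genes are *RB1*, *ESR1*, *PGR*, *GATA3* and *FOXA1*, the 5 members per class and direction (3 for weakened and enlarged) with the largest interaction (kept: the largest smaller response) among those whose mean normalized count reached 200 and whose replicates did not overlap, without clone-only names, and in each list up to 3 abundant members of its main class and up to 2 others with the largest interaction. Some of these are not named in the text, and some are not reported here. Alternatives were total-count factors, edgeR, filters, the replicate block, other thresholds and leaving out each library.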

Additional observations from a re-analysis of the deposited data

Results flagged for a closer look

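The responses of the 2 genotypes differed, by the test of the interaction in DESeq2, for 8668 genes at an adjusted p-value under 0.05. Lost responses made up 361 of these upwards and 748 downwards, and weakened responses 375 and 220. Reversed responses numbered 52 that rose in sgControl and 202 that fell there. Enlarged responses numbered 25 upwards and 6 downwards, and gained responses 11 and 6.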

How the results depend on the processing

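Most unresolved genes had low counts. The class counts rest on the limits of the classes. With responders of at least 1.5 on the log2 scale, 103 increases and 390 decreases were lost, 229 and 143 weakened, 29 increases reversed, 3 increases and 0 decreases kept and 2 increases gained. With an interval of 0.3, 164 and 316 were lost, 436 and 338 weakened, 71 and 289 reversed, 3 and 2 kept and 1 and 3 gained. With an interval of 1, chosen after seeing the data, 752 and 1308 were lost, 140 and 54 weakened, 18 and 70 reversed, 192 and 74 kept, 12 and 2 enlarged and 38 and 15 gained. At an adjusted p-value under 0.01, 15 increases were enlarged. The other class counts stayed within 1.5 times. Of the 1109 lost genes edgeR placed 1102 (99.4%) in the same class and total-count factors 951 (85.8%), and of the 26 kept genes 25 and 13.

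Leaving out each library in turn gave 3 to 8 gained decreases, the 3 without sgControl replicate 3 in abemaciclib, and 4127 to 4744 and 3900 to 4577 interactions. Same-numbered replicates correlated above 0.1 in every pair between the treated groups (0.15, 0.259 and 0.112) and not between the other groups, so the numbers were not taken as pairs. With the replicate block 4314 interactions were positive and 4201 negative, with 356 and 723 lost, 355 and 216 weakened, 47 and 174 reversed, 19 and 8 kept, 23 and 6 enlarged and 10 and 6 gained.

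Of 969 interactions recomputed for 57 genes, 959 kept their direction and side of the threshold and 10 kept only the direction. Of these 8 were *H2BC20P*, 1 was *NQO1* (−0.16, adjusted p = 0.0526 in DESeq2 with total-count factors) and 1 *PGLYRP2* (−1.79, adjusted p = 0.368 in DESeq2 without knockout replicate 3 in DMSO).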
